A study of Mus musculus with 4 samples.

Results

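Notch signalling lets neighbouring cells instruct each other: a ligand on one cell binds a Notch receptor on the next, proteases cut the receptor, and its freed intracellular part enters the nucleus and switches on target genes with the DNA-binding protein RBPJ. The genes described here are 35 members of this pathway. They comprise 4 receptors, 5 ligands, 4 glycosyltransferases and 5 proteases or protease subunits. The others are 4 nuclear proteins, 7 modulators and 6 genes of the HES and HEY families. All were listed by name as core genes of the pathway, and all 35 of 35 were measured among 19938 genes. RNA came from testes of male mice of 2 genotypes, Lhcgr KO (2 samples) and control WT (2 samples), and both genotypes had received busulfan at 44 mg/kg and were killed 4 weeks later. Lhcgr encodes the receptor for luteinizing hormone, through which the pituitary drives testosterone production by Leydig cells. Busulfan is an alkylating agent known to kill germ cells. Each sample was hybridised to an Affymetrix whole-transcript array of 1 colour, and the deposited intensities were compared as log2 values. The labels give no age, strain or allele, and do not say whether the replicates were separate animals, and the p-values therefore reflect sample-to-sample spread that could be technical alone.

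In the mouse testis, JAG1 on germ cells is known to activate NOTCH receptors of Sertoli cells, where HES1 and HEY1 then repress Gdnf, the self-renewal factor of spermatogonial stem cells, and Cyp26b1, which breaks down retinoic acid. Notch signalling also holds back the differentiation of fetal Leydig cells from their progenitors. In blood vessels, NOTCH1, NOTCH4 and DLL4 act in endothelium and NOTCH3 in the mural cells around it.

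The 4 arrays had similar medians, between 198 and 215 intensity units, and the lowest value on each lay just above 16. Lhcgr itself is not analysed here, and the genotypes are taken from the labels. Sertoli cell markers were present on all arrays, with all 14 measured markers at 8.24 log2 units or more, but they moved both ways. Amh rose (log2 fold change 0.80, limma adjusted p = 0.0398) and Trf fell (-2.29, adjusted p = 0.00746). Against 36.8% and 22.4% of all genes, 8 of the 14 Sertoli cell markers lay higher and 2 lower without overlap (57.1% and 14.3%). Their summed intensity was 34396 and 34947 in knockout testes, against 35194 and 33491 in wild-type testes. None of 20 germ cell markers passed the test, and their sums were 4497 and 4340 in knockout testes, against 5041 and 3667 in wild-type testes. Of 10 adult Leydig cell markers 6 fell past the test, and 9 lay lower without overlap, where 22.4% of all genes did. Their summed intensity was 7143 and 5351 in knockout testes, against 30712 and 15805 in wild-type testes. Of 12 macrophage markers 6 fell past the test, and all 12 lay lower without overlap. Their sums were 5025 and 5262 in knockout testes, against 8806 and 10999 in wild-type testes. Of 9 progenitor and fetal Leydig cell markers 3 rose, with sums of 10849 and 10117 in knockout testes, against 6489 and 6498 in wild-type testes. For 18 endothelial markers, of which 1 rose, the sums were 5371 and 5391 against 4774 and 4722. For 14 pericyte and smooth muscle markers, with none past the test, they were 10138 and 8430 against 8093 and 7920. Both lists moved both ways, with fold changes above 0 in 9 and below 0 in 9 endothelial markers, and 7 and 7 in the other list. Their median log2 fold changes were -0.0049 and 0.0695, against 0.0718 for all genes. Wild-type replicate 2 stood apart, with 9 of 15 markers of epididymis and rete testis more than 1 log2 unit above every other array. Their sums were 1422 and 1429 in knockout testes, against 1472 in wild-type replicate 1 and 13372 in wild-type replicate 2. None of the 35 Notch genes was more than 1 log2 unit above the other arrays there. No marker was at 0, since every deposited value is at least 16. In RNA from whole testes, fewer cells of a type and less RNA per cell cannot be told apart, and what these shifts contribute to the values below was not tested.

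Across the Notch pathway, differences between testes with and without the LH receptor were small, and the largest in size were lower values of Psen2 and Hey2 in the knockout. None of the 35 genes passed the test (limma, Benjamini-Hochberg adjusted p under 0.05 over all genes), where 3.1% of all genes did. At an unadjusted p under 0.05, 2 of 35 were counted, Psen2 and Hey2, or 5.71%, against 22.7% of all genes. The median log2 fold change, Lhcgr KO over WT, was 0.05 for the Notch genes and 0.07 for all genes. For 34 of 35 Notch genes the 95% confidence interval of the fold change lay inside 2-fold either way, as for 94.1% of all genes. These limma intervals use a variance moderated over all genes (prior 4.65 degrees of freedom, against 2 residual). With 2 arrays per group they do not exclude a larger change. The arrays of the 2 genotypes did not overlap for 17 of 35 members (48.6%), against 59.2% of all genes. Both knockout arrays lay above both wild-type arrays for 9 members and below them for 8, or 25.7% and 22.9%, against 36.8% and 22.4% of all genes. The fold change was below 0 in 12 of 35 members (34.3%), against 39.4% of all genes. In 12 of 35 members the difference between the groups exceeded the difference between replicates in both groups, or 34.3%, against 44.7% of all genes.

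**Figure D1:**
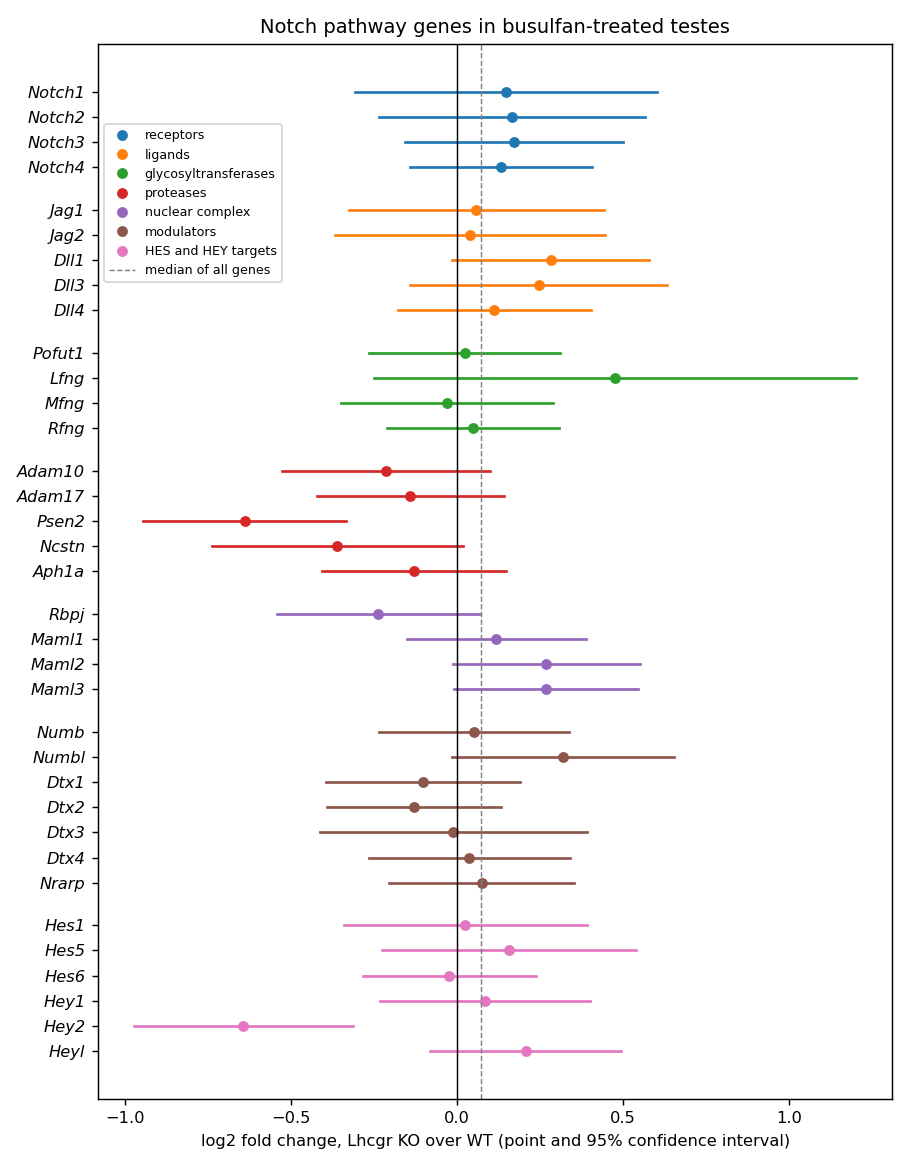
Log2 fold change, Lhcgr KO over WT, of the 35 Notch pathway genes on the horizontal axis (points), ordered down the page by role. Bars are limma's 95% confidence intervals, with a variance moderated over all genes and 2 arrays per group. All bars but those of Psen2 and Hey2 cross 0, and the bar of Lfng, which reaches 1.20, is the widest.

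The 4 receptors overlapped between genotypes or nearly so. Notch1 measured 9.41 and 9.44 log2 units in knockout testes, against 8.99 and 9.56 in wild-type testes, so the wild-type pair enclosed the knockout pair. Notch2 measured 10.56 and 10.09 in knockout testes, against 10.16 and 10.16 in wild-type testes. Notch3 measured 7.43 and 7.47 in knockout testes, against 7.13 and 7.43 in wild-type testes. Notch4 was the receptor whose arrays did not overlap, with 7.74 and 7.81 in knockout testes, against 7.71 and 7.58 in wild-type testes, and the nearest arrays of the genotypes lay closer together than the wild-type pair. The log2 fold changes ran from 0.13 to 0.17, with adjusted p from 0.456 to 0.642 and confidence intervals between -0.31 and 0.60. For Notch1 the sign turned without wild-type replicate 1 (-0.14) and for Notch2 without knockout replicate 1 (-0.07).

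None of the 5 ligands, which are membrane proteins that pull on the receptor, passed the test. Dll1 and Dll3 lay higher without overlap, as 36.8% of all genes did, and Dll4, Jag1 and Jag2 overlapped. Dll1 (probe set 10448034) measured 6.72 and 6.85 log2 units in knockout testes, against 6.41 and 6.59 in wild-type testes. The groups did not overlap, and the log2 fold change was 0.28 ± 0.12 (SE, n = 2 per group, limma adjusted p = 0.236). Dll3, a divergent ligand that does not activate receptors on other cells, measured 6.35 and 6.79 in knockout testes, against 6.34 and 6.32 in wild-type testes. Its knockout replicate 1 lay at the wild-type level, and the fold change was 0.25 ± 0.16 (adjusted p = 0.373). Dll4 measured 7.41 and 7.44 in knockout testes, against 7.42 and 7.22 in wild-type testes, and the groups overlapped. Jag1, the ligand described on germ cells, measured 8.39 and 8.15 in knockout testes, against 8.03 and 8.39 in wild-type testes. Jag2 measured 7.22 and 7.43 in knockout testes, against 7.07 and 7.50 in wild-type testes. Both Jagged genes thus varied as much within a genotype as between genotypes, with log2 fold changes of 0.06 and 0.04, and that of Jag2 was -0.03 after quantile normalization.

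The glycosyltransferases tune which ligand a receptor answers: POFUT1 adds O-fucose, and the Fringe enzymes LFNG, MFNG and RFNG extend it. Lfng measured 8.82 log2 units on knockout replicate 1 and 7.79 on knockout replicate 2, against 7.85 and 7.81 in wild-type testes. A high value on 1 array thus carries its log2 difference of 0.48 ± 0.30 (SE, limma adjusted p = 0.361), which was -0.04 without knockout replicate 1 and 0.99 without knockout replicate 2. Pofut1, Mfng and Rfng had fold changes of 0.02, -0.03 and 0.05, with adjusted p of 0.796 or more. Rfng varied little, with 8.20 and 8.22 in knockout testes, against 8.16 and 8.16 in wild-type testes, and its arrays did not overlap despite the small gap.

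The proteases that release the receptor's intracellular part lay lower in the knockout, by small amounts. ADAM10 and ADAM17 cut the receptor outside the membrane, and the gamma-secretase complex, built from a presenilin, nicastrin, APH1 and PEN2, then cuts it within the membrane. All 5 members were lower on both knockout arrays than on both wild-type arrays, where 22.4% of all genes were, but after quantile normalization this held for 2 of 5. It held for 5 of 5 after centring each array on its median. The 22.4% is the share for the deposited values, and the shares of all genes under these settings are not given here. None of the 5 passed the test, and their median log2 fold change was -0.21.

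Psen2, a catalytic presenilin, had the lowest p of all 35 genes. Its probe set 10360648 measured 8.90 and 8.69 log2 units in knockout testes, against 9.50 and 9.37 in wild-type testes. The groups were separated by more than either replicate difference. The mean was 8.79 ± 0.15 in the knockout and 9.43 ± 0.09 in the wild type (SD, n = 2 each), and the log2 difference was -0.64 ± 0.13 (SE, 95% confidence interval -0.95 to -0.33, limma adjusted p = 0.0549), or 0.642 times the wild-type level. Over the alternative settings its adjusted p ran from 0.0344 to 0.343, and it passed with the weakest 25% or 50% of genes left out, with a trended or a robust prior and with 32 added to each intensity. Without wild-type replicate 2 the fold change was -0.70.

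Ncstn, which encodes nicastrin (probe set 10360205), measured 10.45 and 10.85 log2 units in knockout testes, against 11.08 and 10.95 in wild-type testes. The 2 knockout arrays differed by more than the groups did, and the log2 fold change was -0.36 ± 0.16 (SE, limma adjusted p = 0.234), -0.56 without knockout replicate 2 and -0.16 without knockout replicate 1. Adam10 measured 10.48 and 10.73 in knockout testes, against 10.77 and 10.87 in wild-type testes. Adam17 measured 9.55 and 9.47 in knockout testes, against 9.58 and 9.73 in wild-type testes. In both metalloproteases the nearest arrays of the 2 genotypes lay close together, with fold changes of -0.21 and -0.14. Aph1a has 2 probe sets, which gave -0.13 each.

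Further subunits came from a longer list of pathway genes. Psenen, which encodes PEN2, measured 11.28 and 11.41 log2 units in knockout testes, against 11.61 and 11.61 in wild-type testes (log2 fold change -0.26 ± 0.11, SE, limma adjusted p = 0.233). Aph1c measured 7.58 and 7.76 in knockout testes, against 8.17 and 7.76 in wild-type testes, with a fold change of -0.29. Aph1b overlapped between genotypes and had a fold change of -0.08. None of these 3 genes passed the test. Psenen and Aph1c lay lower without overlap, as 22.4% of all genes did. The fall in macrophage and adult Leydig cell markers ran in the same direction on the same arrays, and its part in these values was not tested.

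**Figure D2:**
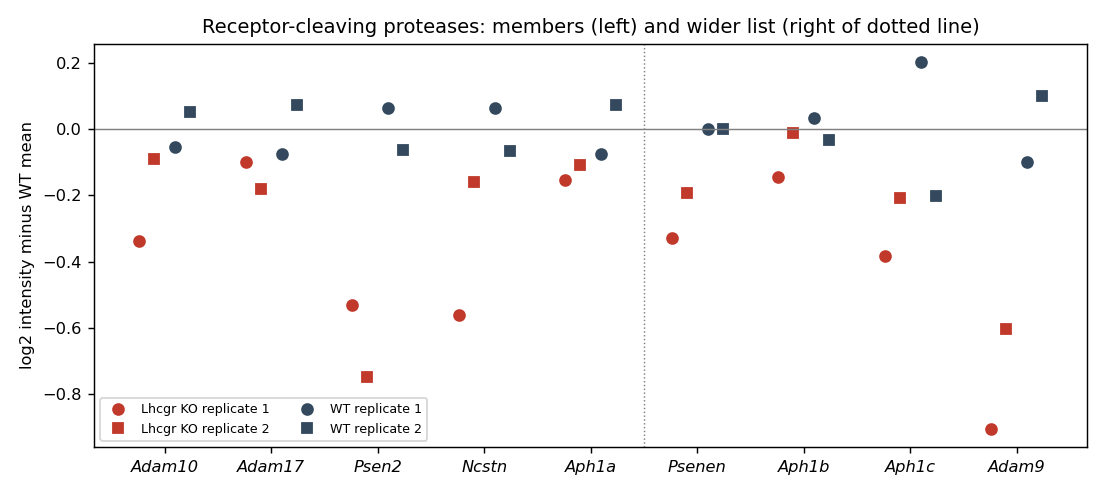
Log2 intensity minus the wild-type mean (vertical axis) of the 5 protease members and of 4 further genes right of the dotted line, with knockout arrays in red left of wild-type arrays in dark blue. The red points lie below 0 in all 9 genes, with Adam9 and Psen2 lowest.

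In the nucleus, RBPJ binds DNA and the Mastermind-like proteins bridge it to the cleaved receptor. Rbpj (probe set 10521913) measured 10.05 and 9.82 log2 units in knockout testes, against 10.12 and 10.22 in wild-type testes, a log2 difference of -0.24 ± 0.13 (SE, limma adjusted p = 0.300). Its second, weaker probe set 10521911 pointed the other way, with 0.17, so the probe sets of Rbpj disagree. Maml2 (probe set 10598101) measured 8.95 and 8.94 in knockout testes, against 8.76 and 8.59 in wild-type testes, with a fold change of 0.27 ± 0.12 (adjusted p = 0.234), and its other probe set also gave 0.27. Maml3 (probe set 10498076) measured 10.02 and 9.91 in knockout testes, against 9.75 and 9.65 in wild-type testes, with 0.27 ± 0.12 (adjusted p = 0.231). Maml1 had 0.12 ± 0.11. All 3 Mastermind-like genes lay above wild type on both knockout arrays, which 36.8% of all genes did, and none passed the test.

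The modulators act on receptor turnover. NUMB and NUMBL promote its endocytosis, the Deltex proteins are ubiquitin ligases that bind it, and NRARP, itself a target, destabilises the intracellular part. Numbl (probe set 10551336) measured 9.43 and 9.25 log2 units in knockout testes, against 8.89 and 9.16 in wild-type testes. The groups did not overlap, but their nearest arrays lay closer together than the replicates of either group, and the log2 fold change was 0.32 ± 0.14 (SE, limma adjusted p = 0.233). Numb, Dtx1, Dtx2, Dtx3, Dtx4 and Nrarp had fold changes from -0.13 to 0.07, with adjusted p from 0.473 to 0.973. Of these 6, Dtx2 alone did not overlap, with 7.98 and 8.04 in knockout testes, against 8.15 and 8.13 in wild-type testes. After quantile normalization Dtx3 had 0.07, against -0.01 before it, and Nrarp had -0.05, against 0.07.

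Most HES and HEY genes encode repressors of transcription that RBPJ activates, and serve as readouts of Notch activity. The best known of them, Hes1, overlapped between genotypes. It measured 8.66 and 8.45 log2 units in knockout testes, against 8.70 and 8.36 in wild-type testes, a log2 fold change of 0.03 with a confidence interval from -0.34 to 0.39. Hey1 measured 7.97 and 8.24 in knockout testes, against 7.99 and 8.05 in wild-type testes, a fold change of 0.08 with an interval from -0.23 to 0.40. For both genes the knockout and wild-type arrays overlapped. Hes5 measured 8.63 and 9.05 in knockout testes, against 8.71 and 8.66 in wild-type testes, and Hes6, which opposes HES1, had a fold change of -0.02. Heyl measured 8.09 and 7.90 in knockout testes, against 7.78 and 7.80 in wild-type testes, with 0.21 ± 0.12 (SE, limma adjusted p = 0.328).

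Hey2, known for its role in the heart and arteries, had the largest difference of the 6, and was lower in the knockout. Its probe set 10368556 measured 5.999 and 5.887 log2 units in knockout testes, against 6.44 and 6.73 in wild-type testes. The groups did not overlap, and the gap between them was larger than either replicate difference. The mean was 5.94 ± 0.08 in the knockout and 6.59 ± 0.21 in the wild type (SD, n = 2 each), a log2 fold change of -0.64 ± 0.14 (SE, 95% confidence interval -0.97 to -0.31, limma adjusted p = 0.0668). Hey2 is a weak signal, whose mean stood at the 12.3 percentile of all genes, and the fold change shrank to -0.45 with 32 added to each intensity. It was -0.79 without wild-type replicate 1 (adjusted p = 0.0255) and -0.50 without wild-type replicate 2, the array with epididymal transcripts (adjusted p = 0.179), and over all settings the adjusted p ran from 0.0255 to 0.361.

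**Figure D3:**
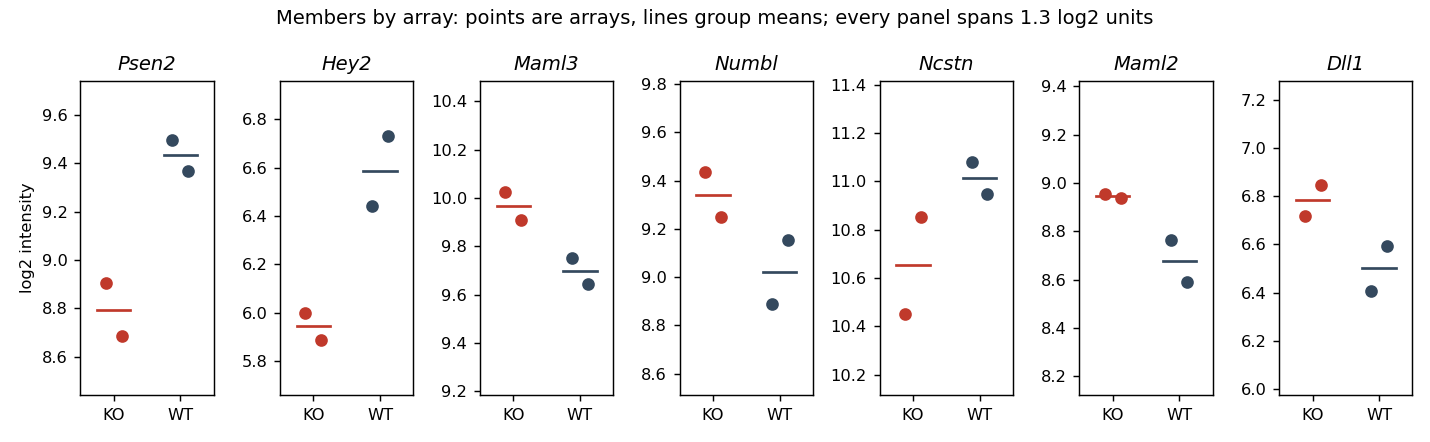
Log2 intensity on each array (points) and group means (lines) for the 7 Notch genes described array by array, knockout left of wild type in each panel, with a vertical span of 1.3 log2 units everywhere. Psen2, Hey2 and Ncstn lie lower in the knockout and Maml3, Numbl, Maml2 and Dll1 higher, and no panel shows overlapping groups.

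Promoters of Hey2, Psen2 and Hes5 hold the letters of the motif through which RBPJ is known to act. The second annotated promoter of Psen2, which lies upstream of the one shown, holds no match. Hey2 and Psen2 are shown because they had the lowest p-values among the members. Hes5 is shown as a classic RBPJ target that did not separate by genotype. Promoters are numbered by genome position, so on the minus strand the first lies downstream. Sequences are RefSeq windows on GRCm38.p6, from 250 bases before to 50 after an annotated start, 5′ to 3′ on the gene's strand, and capitals mark TGGGAA or its reverse complement TTCCCA.
Hey2, chr10:30842734-30843033, minus strand: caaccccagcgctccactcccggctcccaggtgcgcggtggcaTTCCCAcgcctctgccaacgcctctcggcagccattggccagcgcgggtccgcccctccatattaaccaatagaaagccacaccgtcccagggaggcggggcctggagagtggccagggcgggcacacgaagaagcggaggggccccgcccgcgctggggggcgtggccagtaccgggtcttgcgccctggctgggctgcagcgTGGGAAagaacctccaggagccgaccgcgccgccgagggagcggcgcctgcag
Psen2, chr1:180245901-180246200, minus strand, the first of 2 annotated promoters: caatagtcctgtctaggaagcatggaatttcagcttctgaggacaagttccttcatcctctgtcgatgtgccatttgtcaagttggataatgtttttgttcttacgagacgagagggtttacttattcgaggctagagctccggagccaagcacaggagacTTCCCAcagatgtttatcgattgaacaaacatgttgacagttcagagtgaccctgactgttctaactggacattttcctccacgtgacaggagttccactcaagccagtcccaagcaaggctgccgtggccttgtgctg
Hes5, chr4:154960673-154960972, plus strand: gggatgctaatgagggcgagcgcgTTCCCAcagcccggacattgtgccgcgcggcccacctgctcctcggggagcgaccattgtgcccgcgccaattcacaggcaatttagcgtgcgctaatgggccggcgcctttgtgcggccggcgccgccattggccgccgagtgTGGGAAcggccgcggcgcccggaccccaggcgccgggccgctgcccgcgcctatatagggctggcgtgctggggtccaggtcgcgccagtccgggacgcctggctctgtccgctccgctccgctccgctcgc
In Hey2 the motif begins 207 and 3 bases before the start, in Hes5 226 and 82 bases before it, and in Psen2 89 bases before it. Each of these matches also fits the longer form GTGGGAA or its reverse complement. Promoters were matched for 29 of 35 members, 36 promoters in all. Mfng, Dtx3, Dtx4, Hes1, Hey1 and Heyl had no matched promoter and were not searched. TGGGAA on either strand occurred in 10 of the 36 promoters (27.8%), against 25.6% of all 32851 promoters. GTGGGAA, which contains TGGGAA, occurred in 5 of 36 (13.9%), against 6.38% of all promoters, and 2 or more copies were found in Hey2 and Hes5 and in 0.256% of all promoters. These are matches of letters in a short window. Hes5 and Hey2 each hold 2 separate matches. Hes5 overlapped between genotypes, Hey2 did not, as for 59.2% of all genes, and neither passed the test. Whether the motif bears on these values was not tested.

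Gdnf and Cyp26b1, which Sertoli cell NOTCH activity is known to repress, had higher values in the knockout that did not pass the test. Gdnf measured 9.04 and 8.90 log2 units in knockout testes, against 8.48 and 8.36 in wild-type testes. Cyp26b1 measured 10.22 and 9.87 in knockout testes, against 9.40 and 9.60 in wild-type testes. Neither gene's groups overlapped, as for the 36.8% of all genes that lay higher without overlap, and both had a log2 fold change of 0.55, with SE 0.12 and limma adjusted p = 0.0684 for Gdnf and SE 0.15 and adjusted p = 0.121 for Cyp26b1. Over the alternative settings the adjusted p of Gdnf ran from 0.0436 to 0.325 and that of Cyp26b1 from 0.0888 to 0.408. Hes1 and Hey1, the repressors named for these genes, had the overlapping values given above. Among the Sertoli cell markers, 8 of 14 also lay higher without overlap, Amh rose and Trf fell, as given above, and their part in the values of Gdnf and Cyp26b1 was not tested.

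Beyond the members, 59 of 63 listed genes of the wider pathway were measured, covering noncanonical ligands, processing, turnover, nuclear cofactors and other targets. The test was passed by 3 genes, all lower in the knockout, and not by the other 56, where 2.14% of all genes fell and 0.963% rose. Their median log2 fold change was 0.02, against 0.07 for all genes.

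Nfkb2, an NF-kappa-B subunit gene reported as a NOTCH target, fell. Its probe set 10463599 measured 7.93 and 7.86 log2 units in knockout testes, against 8.57 and 8.54 in wild-type testes, a tight pair in each genotype, and a log2 difference of -0.66 ± 0.11 (SE, limma adjusted p = 0.0317). Fbxw7, the ubiquitin ligase subunit that marks the NOTCH intracellular part for degradation, fell as well. Its probe set 10492826 measured 7.45 and 7.38 in knockout testes, against 8.08 and 7.97 in wild-type testes (-0.61 ± 0.11, adjusted p = 0.0439). A weaker probe set of Fbxw7 gave 0.07, and the mean of both gave -0.27 (adjusted p = 0.227). Adam9, a metalloprotease related to ADAM10, measured 9.82 and 10.12 in knockout testes, against 10.62 and 10.82 in wild-type testes, and fell (-0.76 ± 0.15, adjusted p = 0.0496).

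These 3 calls are close to the threshold. Nfkb2 and Fbxw7 did not pass when any 1 of the 4 arrays was left out, with fold changes from -0.70 to -0.62 and from -0.66 to -0.56, and Adam9 passed without wild-type replicate 1 alone, with fold changes from -0.91 to -0.61. Over all settings their adjusted p ran from 0.0189 to 0.292, from 0.0291 to 0.298 and from 0.0273 to 0.359. Macrophage markers fell on the same arrays, with the sums given above, and their part in these calls was not tested.

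Dlk1, a Delta-like protein that lacks the receptor-binding domain of the canonical ligands and marks fetal Leydig cells and progenitors, had the largest difference of the 59 genes and is named after its values were seen. Its probe set 10398319 measured 11.76 and 12.02 log2 units in knockout testes, against 10.82 on wild-type replicate 1 and 6.53 on wild-type replicate 2. The knockout arrays lay close together and the wild-type arrays far apart, so the log2 difference of 3.21 ± 1.18 (SE, limma adjusted p = 0.188) rests on the wild-type pair. It was 5.36 without wild-type replicate 1 (adjusted p = 9.88e-07) and 1.07 without wild-type replicate 2 (adjusted p = 0.0117). Over all settings the adjusted p ran from 9.88e-07 to 0.521. In both cases a lone wild-type array is assumed to vary like the knockout pair. The markers of progenitor and fetal Leydig cells gave 10849 and 10117 summed in knockout testes, against 6489 and 6498 in wild-type testes. The adult Leydig cell markers summed to 7143 and 5351 in knockout testes, against 30712 on wild-type replicate 1 and 15805 on wild-type replicate 2. The median of their per-gene log2 differences, wild-type replicate 2 minus wild-type replicate 1, was -1.36. Wild-type replicate 2 is also the array with epididymal transcripts, and the part of these differences in the value of Dlk1 was not tested.

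**Figure D4:**
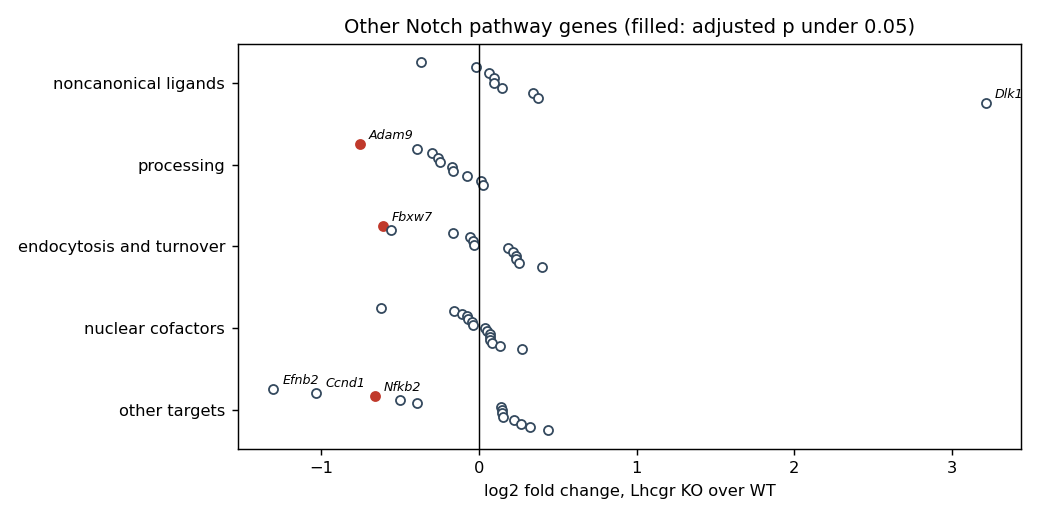
Log2 fold change, Lhcgr KO over WT (horizontal axis), of 59 further pathway genes in 5 classes, with filled red points for the 3 genes past the test. Adam9, Fbxw7 and Nfkb2 lie below 0, Dlk1 stands at 3.21 without passing, and most open points lie near 0.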

How the data were processed

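Testis RNA of 4 samples was measured on 1-colour Affymetrix arrays. The deposited table holds 1 linear intensity per probe set and array, made by the authors; the submitters' processing notes name build mm9, and for summarization, background correction and normalization the sources used here give no method. The values do not fall below 16, which compresses changes of weak genes. Of 28856 probe sets, the 21789 with 1 gene symbol in the platform annotation were used, the highest-mean one per gene, giving 19938 genes; 6 probe sets naming Notch4 together with Sympk were left out. Intensities were taken to log2 here and fitted with limma 3.58.1 in R 4.3.3 (lmFit, eBayes, no covariates, two-sided, Benjamini-Hochberg over all genes, threshold 0.05), after a check on simulated data. The number of arrays limits the precision.

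Members with an unadjusted p under 0.05, or without overlap and a log2 fold change of at least 0.25 in size, are described array by array; wider-list genes past the test, Gdnf and Cyp26b1 are named. Nov of the wider list is the file's Ccn3. The members and gene lists were chosen with earlier results of these data known. The Psen2 promoter was added after its values were seen, and protein sequences were not used here. Alternatives were other normalizations, filters, priors and probe set rules, an ordinary pooled-variance test, a replicate block and leaving out each array; counts of non-overlapping arrays under these, and the settings for 4 wider-list genes, were added after seeing the data.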

Additional observations from a re-analysis of the deposited data

How the results depend on the processing

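None of the 35 Notch genes passed in limma with all arrays (2 at an unadjusted p under 0.05). The count was 1 with 32 added before log2, with the weakest 25% or 50% of genes left out and with a trended prior (Psen2 each time), 2 with a robust prior (Psen2 and Hey2), and 0 to 1 when an array was left out, the 1 being Hey2 without wild-type replicate 1. Calls among 59 wider genes numbered 3, and 5 with 32 added, with a trended prior and with a robust prior, 0 with the ordinary pooled-variance test (7 at an unadjusted p under 0.05), and 0 to 6 without an array. Over all genes, 618 were called, 0 with the ordinary pooled-variance test (2799 at an unadjusted p under 0.05), and 18 to 1039 without an array: 18 without knockout replicate 1, 23 without knockout replicate 2, 1039 without wild-type replicate 1 and 648 without wild-type replicate 2. The all-gene count was 739 with 32 added, 779 with a trended prior and 806 with a robust prior. It was 662 of 14953 genes with the weakest 25% left out, and 608 of 9969 with the weakest 50% left out. The members' median stayed between 0.01 and 0.06 without an array.

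Quantile normalization reversed Jag2 (-0.0275), Dtx3 (0.0673) and Nrarp (-0.0538), none of them called. Leaving out an array reversed 15 uncalled members, whose log2 fold changes then ran from -0.24 to 0.22 for Dtx3, -0.0825 to 0.16 for Dtx4, -0.15 to 0.20 for Hes1, -0.0574 to 0.37 for Hes5, -0.0499 to 0.0026 for Hes6, -0.0502 to 0.22 for Hey1, -0.12 to 0.24 for Jag1, -0.17 to 0.25 for Jag2, -0.0415 to 0.99 for Lfng, -0.16 to 0.10 for Mfng, -0.14 to 0.43 for Notch1, -0.0694 to 0.40 for Notch2, -0.0033 to 0.15 for Nrarp, -0.0445 to 0.15 for Numb and -0.0729 to 0.12 for Pofut1. The other 20 members kept their direction in each of the 14 settings that gave them a value. With the weakest 25% or 50% of genes left out, 31 and 26 of 35 members had one, and the filters, priors, pooled-variance test and block leave fold changes as they were by construction. The cause of these differences was not tested. Replicate numbers are shared by the genotypes, but same-numbered samples did not deviate together (r = 0.02 across genes); with the replicate number as a block, 572 genes, 0 members and 2 wider genes were called, Nfkb2 and Fbxw7 no longer passing (adjusted p = 0.0506 and 0.0629). Members without overlap numbered 17, and 14 after quantile normalization, where the proteases numbered 2 instead of 5. The share of all genes after quantile normalization is not given here, so these drops cannot be set against it. Weak signals such as Hey2 limit what can be detected.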

Other observations

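Among the wider pathway genes that did not pass the test, 3 named after their values were seen had limma adjusted p between 0.0598 and 0.071 and no overlap between genotypes. Epn1, which encodes epsin, an adaptor for the ligand endocytosis that pulls on the receptor, measured 9.67 and 9.57 log2 units in knockout testes, against 10.13 and 10.23 in wild-type testes (log2 fold change -0.56 ± 0.11, SE). Tle1, a Groucho-type corepressor that HES proteins recruit, measured 8.66 and 8.69 in knockout testes, against 9.16 and 9.43 in wild-type testes (-0.62 ± 0.13). Efnb2, an arterial ephrin ligand downstream of Notch, measured 7.08 and 7.36 in knockout testes, against 8.05 and 8.99 in wild-type testes (-1.30 ± 0.29), and its higher wild-type value was on the array with epididymal transcripts. Ccnd1 measured 8.41 and 8.79 in knockout testes, against 8.57 on wild-type replicate 1 and 10.70 on that same array.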
